A study of Saccharomyces cerevisiae with 8 samples.

Results

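Retrograde signalling in budding yeast (Saccharomyces cerevisiae) is represented here by 9 genes that make citrate and carry it toward glutamate, or that are listed beside those genes as retrograde targets. They are the citrate synthase genes CIT1 (YNR001C), CIT2 (YCR005C) and CIT3 (YPR001W), the aconitase gene ACO1 (YLR304C), the isocitrate dehydrogenase genes IDH1 (YNL037C) and IDH2 (YOR136W), DLD3 (YEL071W), PDH1 (YPR002W) and PYC1 (YGL062W). The genes were chosen by name, and all 9 were found among the 6600 open reading frames of the count tables and among the 5879 that passed the filter on low counts. Total RNA was sequenced from strains in which Ceg1, the guanylyltransferase of the mRNA capping enzyme, can be drawn out of the nucleus. In this anchor-away design rapamycin ties FRB, fused to Ceg1, to FKBP12, fused to the ribosomal protein Rpl13a, and Ceg1 follows Rpl13a out to the cytoplasm. Both strains are MATalpha, and both carry tor1-1, the disruption fpr1::NAT, RPL13AxFKB12::TRP and CEG1-FRB::HIS. Of these, tor1-1 and fpr1::NAT are meant to keep rapamycin from acting through its usual target. The ceg1-AA/xrn1D strain also lacks XRN1, the main cytoplasmic 5′ to 3′ exonuclease gene, written KAN::XRN1 in the labels of replicate 1 and KAN::XRN3 in those of replicate 2. Cells in YPD at 30 °C received rapamycin at 1 µg/mL or its solvent DMSO for 45 min. There were 2 ceg1-AA/xrn1D rapamycin libraries, 1 ceg1-AA/xrn1D DMSO library, 2 ceg1-AA rapamycin libraries and 2 ceg1-AA DMSO libraries. A ceg1-AA/xrn1D DMSO replicate 2 is described in the labels and was not analysed here. No strain without the FRB tag was analysed here, so rapamycin itself and the removal of Ceg1 cannot be told apart.

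When mitochondria respire poorly, yeast turns on the retrograde (RTG) pathway, which keeps up the supply of citrate and 2-oxoglutarate, the carbon skeleton of glutamate. Mks1, when bound to the 14-3-3 proteins Bmh1 and Bmh2, blocks the transcription factors Rtg1 and Rtg3, and Rtg2, which senses the state of the mitochondria, binds Mks1 and relieves the block. The ubiquitin ligase subunit Grr1 marks free Mks1 for breakdown. Lst8, also a subunit of the TOR complexes, restrains the pathway. Rtg1 and Rtg3 bind as a pair to the R box, GTCAC. CIT2, which encodes the peroxisomal citrate synthase, is the classical reporter of the pathway, and loss of mitochondrial DNA is its classical trigger. CIT1, ACO1, IDH1 and IDH2 encode mitochondrial enzymes of the TCA cycle and are driven by the Hap complex in respiring cells and by Rtg1 and Rtg3 in cells that respire poorly. DLD3 encodes a cytosolic enzyme that uses D-2-hydroxyglutarate and D-lactate, and is a known RTG target. CIT3 and PDH1 act in the methylcitrate route of propionate breakdown in mitochondria, and PYC1 encodes a cytosolic pyruvate carboxylase that makes oxaloacetate.

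Library size ranged from 935651 to 3385761 counts, with both ceg1-AA rapamycin libraries at the low end. XRN1 had 0 counts in all 3 libraries of ceg1-AA/xrn1D, 384 and 338 in ceg1-AA rapamycin and 794 and 632 in ceg1-AA DMSO, so XRN1 RNA was not detected in any library whose strain name carries xrn1D, in replicate 2 as in replicate 1. The strains differed in mitochondrial RNA as well. Of 8 mitochondrially encoded proteins listed, COX1, COB, ATP6, COX2 and COX3 had at most 1 count in any ceg1-AA/xrn1D library, against 49 to 3573 counts in ceg1-AA rapamycin and 54 to 2132 counts in ceg1-AA DMSO. OLI1 was still detected in ceg1-AA/xrn1D, at 729 and 828 CPM in rapamycin and 592 CPM in DMSO, against 2226 and 1592 CPM in ceg1-AA rapamycin and 1324 and 1129 CPM in ceg1-AA DMSO. It was lower in ceg1-AA/xrn1D under rapamycin (log2 -1.29 ± 0.20, edgeR adjusted p = 0.00049) and under DMSO (-1.05 ± 0.25, edgeR adjusted p = 0.0074), and with total counts alone the DMSO difference did not pass (-0.51, edgeR adjusted p = 0.0788). VAR1 did not pass (-0.61 ± 0.25 under rapamycin and -0.48 ± 0.30 under DMSO), and ATP8 had 0 counts everywhere. The absence of XRN1 and the lower mitochondrial RNAs fall in the same libraries and cannot be told apart in any comparison of the strains. Nothing in the labels says that replicates came from separate cultures, so p-values measure the spread between these libraries, which may be technical. All changes are relative to the other RNAs in a library. If libraries are scaled by total count alone, in place of the trimmed mean of M-values (TMM), the median of all genes shifts by 0.51 (log2) for rapamycin over DMSO in ceg1-AA and by 0.54 for ceg1-AA/xrn1D over ceg1-AA under DMSO.

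The R box was looked for in the 300 bases that begin 400 bases before each start codon, as GTCAC on either strand (GTGAC when read from the other strand), in the R64 genome assembly. CIT2 held 3 copies, DLD3 held 2, and CIT1, CIT3 and IDH1 held 1 each, while ACO1, IDH2, PDH1 and PYC1 held none in this window. Of 6001 such windows in the genome, 29.4% held at least 1 copy and 5.18% at least 2, against 5 and 2 of the 9 genes. The whole CIT2 window is printed because CIT2 is the reporter of the pathway, followed by the parts of the other windows that hold a match, all 5′ to 3′ on the strand of the gene with the matches in capitals. They lie at chrIII:122429-122728 (minus strand) for CIT2, chrXIV:631405-631449 (minus) for CIT1, chrXVI:556132-556176 (plus) for CIT3, chrXIV:559333-559377 (minus) for IDH1 and chrV:16192-16236 (plus) for DLD3.
CIT2: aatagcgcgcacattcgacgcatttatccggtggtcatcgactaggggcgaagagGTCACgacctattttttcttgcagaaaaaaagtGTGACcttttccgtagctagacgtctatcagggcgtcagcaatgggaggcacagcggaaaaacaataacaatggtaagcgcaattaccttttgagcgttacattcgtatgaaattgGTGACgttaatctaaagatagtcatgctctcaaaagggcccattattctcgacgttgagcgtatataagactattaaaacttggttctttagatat
CIT1: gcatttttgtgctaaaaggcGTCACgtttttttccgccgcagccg
CIT3: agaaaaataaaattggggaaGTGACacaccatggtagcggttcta
IDH1: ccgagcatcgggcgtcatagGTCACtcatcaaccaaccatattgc
DLD3: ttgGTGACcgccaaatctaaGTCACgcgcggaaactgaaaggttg
CCAAT, the core of the Hap complex site, was found on either strand in 7 of the 9 windows and in 43.9% of all windows. ACO1, PDH1 and PYC1 held 2 copies, CIT1, CIT2, CIT3 and IDH1 held 1, and IDH2 and DLD3 held none. A match is a description of the letters only. In the CIT2 window the copy of GTGAC nearest the start codon overlaps a CCAAT match (ATTGG on this strand) by 1 base, and the window also overlaps the annotated open reading frame YCR006C.

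The 9 genes lie on separate stretches of chromosomes III (CIT2, 120946 to 122328), V (DLD3, 16355 to 17845), VII (PYC1, 385196 to 388732), XII (ACO1, 735212 to 737548), XIV (CIT1, 629622 to 631061, and IDH1, 557920 to 559002), XV (IDH2, 580250 to 581359) and XVI (CIT3, 556377 to 557837, and PDH1, 558385 to 559935), and no other annotated gene overlaps them. CIT3 and PDH1 are neighbours on the same strand with 547 bases between them. CIT1 and CIT2 are 70.7% identical over their coding sequences, but the longest run they share is 21 bases, and CIT3 is 53.9% and 54.6% identical to CIT1 and CIT2. PYC1 alone shares a long run with another gene, 200 bases with its paralog PYC2, so its counts are uncertain where reads could fall to either copy. Whether the authors' counting used strand is not given in the sources used here.

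In ceg1-AA cells, rapamycin divided the 9 genes. CIT2 and CIT3 were 2.05-fold and 2.83-fold higher than under DMSO, while ACO1, IDH1, IDH2, DLD3 and PYC1 were lower, at between 0.498 and 0.594 of the DMSO level. CIT1 and PDH1 did not pass the test. That makes 7 of 9 genes past an adjusted p of 0.05 (edgeR quasi-likelihood test, Benjamini-Hochberg over 5879 genes), where 47.1% of all genes passed. Of the 9 genes 5 were lower, against 22.8% of all genes, and 2 were higher, against 24.3%. The median log2 fold change of the 9 genes was -0.75, beside 0.11 for all genes tested. With total counts alone the balance turned over, to 4 of the 9 genes higher and 1 lower, with a median of -0.24, beside 0.62 for all genes tested. Of all calls, 51.6% were toward higher with TMM scaling and 81.8% with total counts alone.

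**Figure D1:**
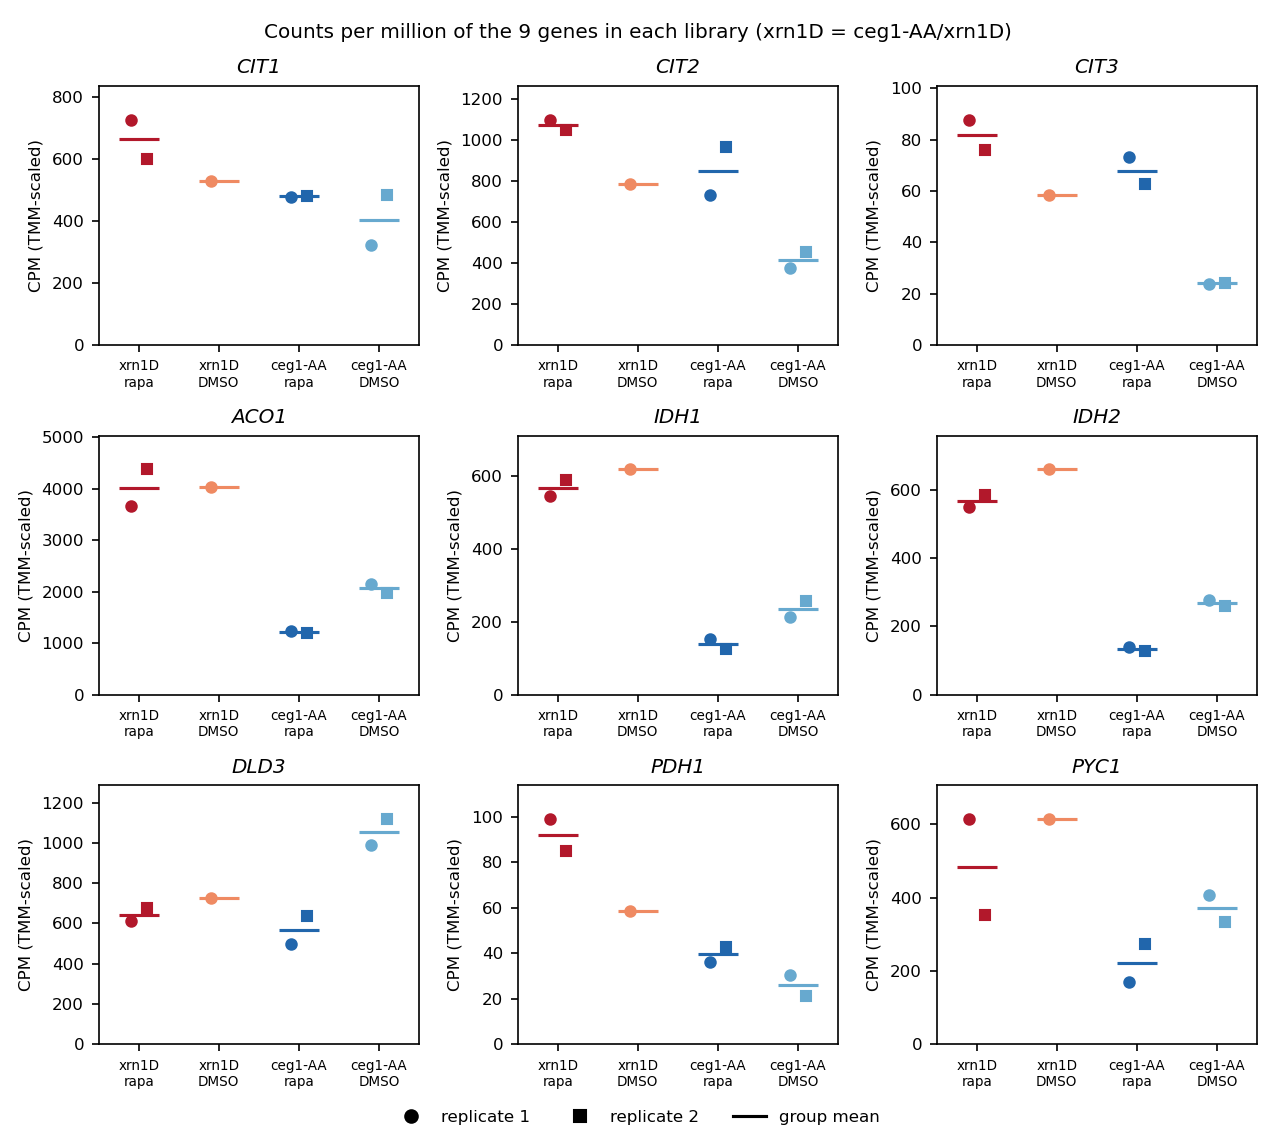
CPM (TMM-scaled) of each of the 9 genes in the 7 libraries, with a panel for each gene, circles for replicate 1, squares for replicate 2 and a line at the group mean; the vertical axes start at 0 and differ between panels. CIT2 and CIT3 are low in ceg1-AA DMSO and higher in the other groups, whereas ACO1, IDH1 and IDH2 are lowest in ceg1-AA rapamycin and highest in the ceg1-AA/xrn1D libraries.

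Of the citrate synthase genes, CIT2 had 733 and 964 CPM (counts scaled to a common library size with TMM) in ceg1-AA rapamycin, against 376 and 454 CPM in ceg1-AA DMSO. The groups did not overlap, and the fitted log2 fold change was 1.03 ± 0.18 (SE; edgeR adjusted p = 0.00115). CIT3 is expressed at a far lower level, with 77 and 63 counts (73.3 and 62.6 CPM) in ceg1-AA rapamycin, against 29 and 24 counts (23.8 and 24.3 CPM) in ceg1-AA DMSO. Its change was the largest of the 9 in this comparison, 1.5 ± 0.22 (edgeR adjusted p = 0.000368). CIT2 and CIT3 passed under all 12 alternatives tried. CIT1, the mitochondrial enzyme of the TCA cycle, had 478 and 481 CPM in ceg1-AA rapamycin, against 323 and 481 CPM in ceg1-AA DMSO. The ranges overlapped, and at 0.26 ± 0.20 it did not pass (edgeR adjusted p = 0.314). That result rests on the DMSO libraries: without DMSO replicate 2 the log2 change is 0.57 and passes (edgeR adjusted p = 0.028), and without DMSO replicate 1 it is -0.0087. With total counts alone it is 0.77, which also passes.

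In ceg1-AA, RNAs of ACO1, IDH1 and IDH2, whose enzymes follow citrate in the mitochondrion, were lower in rapamycin than in DMSO with TMM scaling. ACO1, which encodes aconitase, had 1236 and 1206 CPM in ceg1-AA rapamycin, against 2156 and 1967 CPM in ceg1-AA DMSO, without overlap (log2 -0.76 ± 0.18, edgeR adjusted p = 0.00537). IDH1 and IDH2 encode the subunits of the NAD-dependent isocitrate dehydrogenase. IDH1 had 151 and 126 CPM in ceg1-AA rapamycin, against 212 and 257 CPM in ceg1-AA DMSO (log2 -0.76 ± 0.17, edgeR adjusted p = 0.00479). IDH2 had 141 and 127 CPM in ceg1-AA rapamycin, against 277 and 261 CPM in ceg1-AA DMSO (log2 -1.01 ± 0.15, edgeR adjusted p = 0.000481). For both subunits every rapamycin library lay below every DMSO library. With total counts alone the log2 changes are -0.24 for ACO1, -0.24 for IDH1 and -0.49 for IDH2, and only IDH2 of these 3 still passes (edgeR adjusted p = 0.013). The ACO1 call is also lost without ceg1-AA rapamycin replicate 1 (edgeR adjusted p = 0.0627) or replicate 2 (0.0729), and the IDH1 call without rapamycin replicate 2 (0.0576).

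DLD3, which is induced with CIT2 in the classical retrograde response, was lower: 496 and 635 CPM in ceg1-AA rapamycin, against 990 and 1120 CPM in ceg1-AA DMSO. The groups were well apart, at a log2 change of -0.90 ± 0.17 (edgeR adjusted p = 0.0019), or -0.39 with total counts alone (edgeR adjusted p = 0.0528). PYC1 had 169 and 272 CPM in ceg1-AA rapamycin, against 407 and 333 CPM in ceg1-AA DMSO, at -0.75 ± 0.28 (edgeR adjusted p = 0.0489). This call is at the threshold: the change is -0.44 without rapamycin replicate 1 (edgeR adjusted p = 0.309), -0.60 without DMSO replicate 1 (0.0698) and -0.24 with total counts alone (0.499). PDH1 had 38 and 43 counts (36.2 and 42.7 CPM) in ceg1-AA rapamycin, against 37 and 21 counts (30.3 and 21.3 CPM) in ceg1-AA DMSO. Its groups did not overlap, but at 0.59 ± 0.26 it did not pass (edgeR adjusted p = 0.0814), and it does so without DMSO replicate 1 (0.88, adjusted p = 0.0408) and with total counts alone (1.11, adjusted p = 0.0047).

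In ceg1-AA/xrn1D cells none of the 9 genes passed the test for rapamycin over DMSO, where 4 of all 5879 genes, 0.068%, passed (0.034% higher and 0.034% lower, edgeR). Unadjusted p was under 0.05 for 2 of the 9 genes and for 875 genes in all, and DESeq2 called none of the 9 and 35 genes in all. This comparison has 1 DMSO library, which is assumed to vary like the other groups. CIT1, CIT2, CIT3 and PDH1 had higher CPM in both rapamycin libraries than in the DMSO library, and IDH1, IDH2 and DLD3 had lower CPM in both. The share of all genes that did either was not counted. CIT2 had 1099 and 1049 CPM in ceg1-AA/xrn1D rapamycin, against 784 CPM in DMSO, a log2 change of 0.45 ± 0.22 (edgeR adjusted p = 0.366). CIT3 had 87.8 and 76.1 CPM in ceg1-AA/xrn1D rapamycin, against 58.4 CPM in DMSO (0.49 ± 0.19, edgeR adjusted p = 0.278). CIT1 had 725 and 599 CPM, against 529 CPM in DMSO (0.32 ± 0.24, edgeR adjusted p = 0.57). PDH1 had the largest difference of the 9, with 99.0 and 84.8 CPM in rapamycin, against 58.4 CPM in DMSO (0.65 ± 0.21, edgeR adjusted p = 0.203), and it passed when either ceg1-AA DMSO library was left out of the fit (adjusted p = 0.0332 and 0.0342). The remaining genes had log2 changes between -0.35 ± 0.32 for PYC1 and -0.00 ± 0.21 for ACO1, with 1 PYC1 rapamycin library level with the DMSO library and 1 below it.

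Whether the responses of the strains differ was tested as an interaction, ceg1-AA/xrn1D minus ceg1-AA, with the same assumption on the lone DMSO library. The directions depend on scaling. The median log2 difference of all genes was -0.10 with TMM and -0.55 with total counts alone. For the 9 genes it was 0.40 with TMM and -0.034 with total counts alone. CIT3 was lower (log2 -1.01 ± 0.29, edgeR adjusted p = 0.0332) and IDH2 higher (0.79 ± 0.23, edgeR adjusted p = 0.0346), so 2 of 9 genes passed, beside 21.5% of all genes (11.9% higher and 9.66% lower). CIT3 responded by 0.49 in ceg1-AA/xrn1D and by 1.5 in ceg1-AA, and IDH2 by -0.22 in ceg1-AA/xrn1D and -1.01 in ceg1-AA. Neither call is firm. CIT3 does not pass without either rapamycin replicate of either strain (edgeR adjusted p between 0.06 and 0.112) or with DESeq2 (0.151), and IDH2 does not pass when any 1 of the same libraries is left out (0.057 to 0.134) or with total counts alone (0.34, adjusted p = 0.233). For CIT2 the difference was -0.58 ± 0.28 (edgeR adjusted p = 0.16), or -1.03 with total counts alone, which passes (edgeR adjusted p = 0.0154). For ACO1, IDH1 and DLD3 it was 0.75 ± 0.28, 0.63 ± 0.26 and 0.73 ± 0.27, short of the threshold (edgeR adjusted p = 0.0749, 0.101 and 0.0793). ACO1 passed with DESeq2 (0.81, adjusted p = 0.00684) and without ceg1-AA/xrn1D rapamycin replicate 1 (0.87, edgeR adjusted p = 0.0371). DLD3 passed with DESeq2 (adjusted p = 0.0339) and without ceg1-AA DMSO replicate 1 (edgeR adjusted p = 0.0436), and IDH1 without that same library (edgeR adjusted p = 0.0406). For CIT1, PDH1 and PYC1 the differences were 0.07 ± 0.31, 0.06 ± 0.33 and 0.40 ± 0.43.

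**Figure D2:**
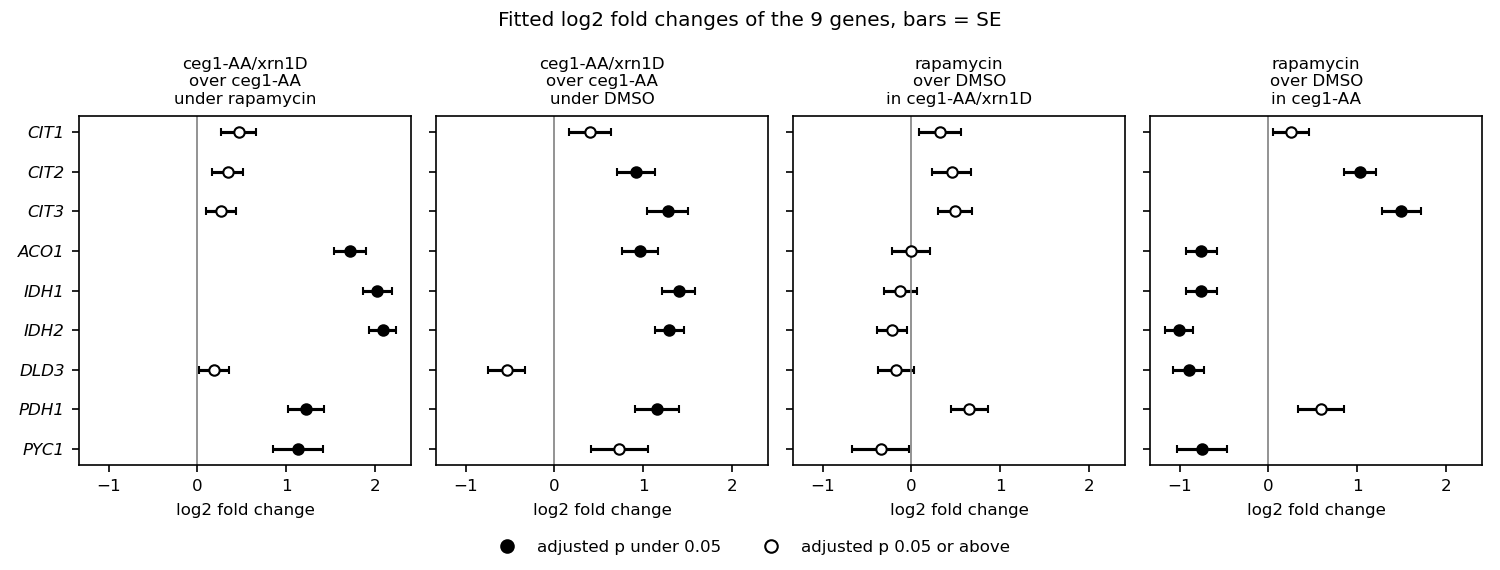
Fitted log2 fold changes (edgeR) of the 9 genes in 4 comparisons, with bars of 1 SE; filled points have an adjusted p under 0.05 and open points do not. Under rapamycin ACO1, IDH1 and IDH2 are 1.72 to 2.09 higher (log2) in ceg1-AA/xrn1D than in ceg1-AA, while CIT1, CIT2, CIT3 and DLD3 are open points between 0.19 and 0.47.

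Between the strains under rapamycin, ACO1, IDH1 and IDH2 had the largest differences among the 9 genes. In this comparison 5 of the 9 genes were higher in ceg1-AA/xrn1D than in ceg1-AA and none lower, where 43.7% of all genes passed, 21.2% higher and 22.5% lower (edgeR). The median log2 fold change was 1.13 for the 9 genes and 0.02 for all genes tested. ACO1 had 3670 and 4377 CPM in ceg1-AA/xrn1D rapamycin, against 1236 and 1206 CPM in ceg1-AA rapamycin. The strains were far apart, at a log2 change of 1.72 ± 0.18 (a 3.30-fold difference, edgeR adjusted p = 5.97e-05). IDH1 had 546 and 588 CPM in ceg1-AA/xrn1D rapamycin, against 151 and 126 CPM in ceg1-AA rapamycin (2.03 ± 0.17, a 4.08-fold difference, edgeR adjusted p = 1.72e-05). IDH2 had 552 and 587 CPM in ceg1-AA/xrn1D rapamycin, against 141 and 127 CPM in ceg1-AA rapamycin (2.09 ± 0.15, a 4.25-fold difference, edgeR adjusted p = 7.34e-06). The subunit genes differed by nearly the same factor, and neither overlapped between strains. PDH1 had 99.0 and 84.8 CPM in ceg1-AA/xrn1D rapamycin, against 36.2 and 42.7 CPM in ceg1-AA rapamycin, also without overlap (1.22 ± 0.20, edgeR adjusted p = 0.000859). ACO1, IDH1, IDH2 and PDH1 passed under all 12 alternatives tried.

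PYC1 was higher in the same comparison, with 614 and 352 CPM in ceg1-AA/xrn1D rapamycin, against 169 and 272 CPM in ceg1-AA rapamycin (1.13 ± 0.28, edgeR adjusted p = 0.00767). The replicates of PYC1 differed by 1.74-fold in ceg1-AA/xrn1D, the widest replicate gap among the 9 genes, and the call is lost without ceg1-AA/xrn1D rapamycin replicate 1 (0.68, edgeR adjusted p = 0.0834) or ceg1-AA rapamycin replicate 1 (0.83, 0.0794). CIT2 had 1099 and 1049 CPM in ceg1-AA/xrn1D rapamycin, against 733 and 964 CPM in ceg1-AA rapamycin. Both libraries of ceg1-AA/xrn1D were higher, but at 0.34 ± 0.18 CIT2 did not pass (edgeR adjusted p = 0.145). CIT3 (0.27 ± 0.17, edgeR adjusted p = 0.229) and DLD3 (0.19 ± 0.17, edgeR adjusted p = 0.404) did not pass either. CIT1 had 725 and 599 CPM in ceg1-AA/xrn1D rapamycin, against 478 and 481 CPM in ceg1-AA rapamycin (0.47 ± 0.20, edgeR adjusted p = 0.0764). It passed when ceg1-AA DMSO replicate 1 or 2 was left out of the shared fit (edgeR adjusted p = 0.0186 and 0.0174), and with total counts alone (0.56, edgeR adjusted p = 0.0418).

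Under DMSO, 6 of the 9 genes were higher in ceg1-AA/xrn1D than in ceg1-AA and none lower, where 39.2% of all genes passed, 19.2% higher and 20.0% lower (edgeR). Again the lone ceg1-AA/xrn1D library is assumed to vary like the other groups. The median log2 fold change was 0.97 for the 9 genes and 0.04 for all genes tested. Of all calls, 49.0% were toward higher with TMM scaling and 86.0% with total counts alone. CIT2 had 784 CPM in ceg1-AA/xrn1D DMSO, against 376 and 454 CPM in ceg1-AA DMSO (0.92 ± 0.21, edgeR adjusted p = 0.00692), and CIT3 had 58.4 CPM, against 23.8 and 24.3 CPM (1.28 ± 0.23, edgeR adjusted p = 0.00208). Both synthase genes were above the ceg1-AA DMSO level in ceg1-AA/xrn1D cells that had received no rapamycin. ACO1 had 4029 CPM in ceg1-AA/xrn1D DMSO, against 2156 and 1967 CPM in ceg1-AA DMSO (0.97 ± 0.21, edgeR adjusted p = 0.00445). IDH1 was at 619 CPM in ceg1-AA/xrn1D DMSO, against 212 and 257 CPM in ceg1-AA DMSO (1.40 ± 0.19, edgeR adjusted p = 0.00048), and IDH2 at 662 CPM, against 277 and 261 CPM (1.30 ± 0.17, edgeR adjusted p = 0.000447). PDH1 was at 58.4 CPM in ceg1-AA/xrn1D DMSO, against 30.3 and 21.3 CPM in ceg1-AA DMSO (1.16 ± 0.25, edgeR adjusted p = 0.00486). These 6 genes passed under all 11 alternatives that could be run.

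DLD3 was at 726 CPM under DMSO in ceg1-AA/xrn1D, against 990 and 1120 CPM in ceg1-AA. The value of -0.54 ± 0.21 did not pass (edgeR adjusted p = 0.0658). With RLE scaling it passed, so that 6 of the 9 genes were higher and 1, DLD3, lower. It passed with DESeq2 (-0.60, adjusted p = 0.0221) and without ceg1-AA DMSO replicate 1 (-0.63, edgeR adjusted p = 0.0433), and was 0.0052 with total counts alone. CIT1 (529 CPM, against 323 and 481 CPM) and PYC1 (615 CPM, against 407 and 333 CPM) had log2 differences of 0.40 ± 0.24 and 0.73 ± 0.32 that did not pass (edgeR adjusted p = 0.201 and 0.094). CIT1 passed without ceg1-AA DMSO replicate 2 (0.71, edgeR adjusted p = 0.0145) and PYC1 without ceg1-AA DMSO replicate 1 (0.88, edgeR adjusted p = 0.0192), and both passed with total counts alone (0.94 and 1.27). The comparisons of the strains and of the treatments share libraries, so their values are set side by side and not correlated.

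Across the 4 groups the mean levels fell into a few orders. The share of all genes whose groups lie apart was not counted, here or in the comparisons above. Any gap beside ceg1-AA/xrn1D DMSO rests on 1 library. None of the 9 genes passed for rapamycin over DMSO in ceg1-AA/xrn1D, so the order of those groups is not a tested difference. CIT2 averaged 1074 ± 35.0 CPM in ceg1-AA/xrn1D rapamycin, 784 in ceg1-AA/xrn1D DMSO (1 library), 849 ± 163 CPM in ceg1-AA rapamycin and 415 ± 55.1 CPM in ceg1-AA DMSO (SD, n = 2 each), and the ceg1-AA/xrn1D DMSO value lies within the ceg1-AA rapamycin range. CIT3 had the same order, without overlap, with 81.9 ± 8.27 CPM in ceg1-AA/xrn1D rapamycin, 58.4 in ceg1-AA/xrn1D DMSO (1 library), 68.0 ± 7.58 CPM in ceg1-AA rapamycin and 24.05 ± 0.393 CPM in ceg1-AA DMSO (SD, n = 2 each). IDH1 and IDH2 were highest in ceg1-AA/xrn1D DMSO, then ceg1-AA/xrn1D rapamycin, then ceg1-AA DMSO and lowest in ceg1-AA rapamycin, with no overlap between neighbours. IDH2 averaged 570 ± 24.6 CPM in ceg1-AA/xrn1D rapamycin, 662 in ceg1-AA/xrn1D DMSO (1 library), 134 ± 9.71 CPM in ceg1-AA rapamycin and 269 ± 11.0 CPM in ceg1-AA DMSO (SD, n = 2 each). ACO1 had the same order, except that the ceg1-AA/xrn1D groups overlap. PDH1 was highest in ceg1-AA/xrn1D rapamycin, followed without overlap by ceg1-AA/xrn1D DMSO, ceg1-AA rapamycin and ceg1-AA DMSO. PYC1 ran from ceg1-AA/xrn1D DMSO to ceg1-AA rapamycin with overlap between ceg1-AA/xrn1D rapamycin and ceg1-AA DMSO, and CIT1 from ceg1-AA/xrn1D rapamycin to ceg1-AA DMSO with overlap between the ceg1-AA groups. DLD3 alone was highest in ceg1-AA DMSO (1055 ± 91.8 CPM, SD, n = 2).

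Ratios within a library do not depend on how libraries are scaled. TPM, the authors' value corrected for coding length and bias, allows genes to be set against each other, and the ratios carry that correction. The ratio of CIT2 to CIT1 in TPM was 1.57 and 1.81 in ceg1-AA/xrn1D rapamycin, 1.53 in ceg1-AA/xrn1D DMSO, 1.60 and 2.08 in ceg1-AA rapamycin and 1.21 and 0.981 in ceg1-AA DMSO. The peroxisomal form was thus the more abundant synthase transcript in every library but ceg1-AA DMSO replicate 2. CIT2 made up 58.3% and 61.6% of the summed TPM of the 3 synthase genes in ceg1-AA/xrn1D rapamycin, 57.9% in ceg1-AA/xrn1D DMSO, 58.1% and 64.8% in ceg1-AA rapamycin and 53.1% and 48.3% in ceg1-AA DMSO. CIT3 was the least abundant, at 72.1 TPM in ceg1-AA/xrn1D rapamycin, 48.5 in ceg1-AA/xrn1D DMSO, 49.1 TPM in ceg1-AA rapamycin and 11.3 TPM in ceg1-AA DMSO on average.

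The balance between the steps after citrate and the synthases was lowest in ceg1-AA rapamycin. ACO1 over the summed synthase TPM was 1.30 and 1.77 in ceg1-AA/xrn1D rapamycin, 2.08 in ceg1-AA/xrn1D DMSO, 0.598 and 0.530 in ceg1-AA rapamycin and 1.85 and 1.29 in ceg1-AA DMSO. IDH1 and IDH2 together over the same sum gave 0.715 and 0.837 in ceg1-AA/xrn1D rapamycin, 1.14 in ceg1-AA/xrn1D DMSO, 0.292 and 0.211 in ceg1-AA rapamycin and 0.871 and 0.696 in ceg1-AA DMSO. For both ratios the ceg1-AA rapamycin libraries lay below every other library, with 2 libraries in that group. The subunit transcripts kept close to parity throughout, with IDH1 over IDH2 between 0.786 and 1.10, and ACO1 was 3.6 to 5.0 times IDH1 in TPM.

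**Figure D3:**
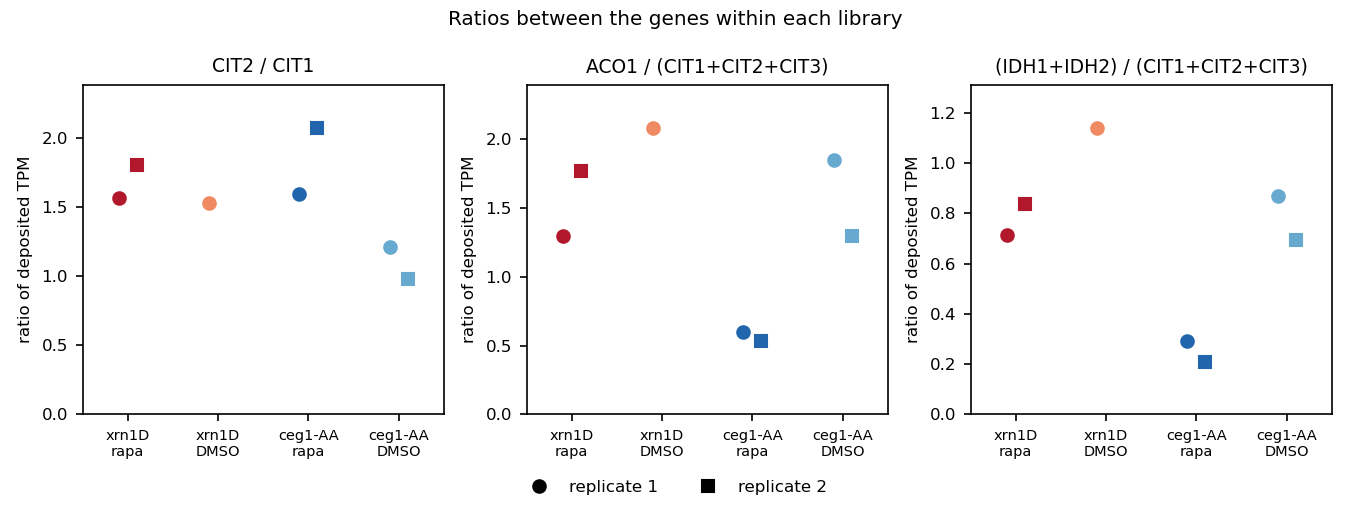
Ratios of deposited TPM within each of the 7 libraries, with circles for replicate 1 and squares for replicate 2 and axes from 0: CIT2 over CIT1, ACO1 over the sum of the 3 citrate synthase genes, and IDH1 plus IDH2 over that sum. The ceg1-AA rapamycin libraries have the lowest ACO1 (0.598 and 0.530) and IDH (0.292 and 0.211) ratios.

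The genes whose pattern over the 7 libraries was most like that of CIT2 were looked for among 4897 genes with a mean count of at least 50, by the root mean square difference of log2 CPM centred on each gene's mean. The nearest were MSS1 (0.105), GTT2 (0.124), RTG3 (0.126), SIA1 (0.126) and NGL3 (0.128). RTG3 encodes the DNA-binding partner of Rtg1, MSS1 a mitochondrial enzyme of tRNA modification, and GTT2 a glutathione S-transferase. Of the other 8 genes, CIT3 came closest at rank 212 (0.253), then CIT1 at rank 590 and PDH1 at rank 927. ACO1, PYC1, IDH1, DLD3 and IDH2 stood at ranks 3201 to 3877, in that order. The likeness is a description over 7 libraries in 4 groups.

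Transcripts of the RTG regulators moved in both directions. In ceg1-AA, rapamycin over DMSO gave 3 of 8 higher and 2 lower (edgeR), near the 24.3% and 22.8% of all genes, with a median of 0.09. RTG3 had 98.1 and 114.3 CPM in ceg1-AA rapamycin, against 41.8 and 52.7 CPM in ceg1-AA DMSO (1.18 ± 0.19, edgeR adjusted p = 0.00058). MKS1, the inhibitor (1.22 ± 0.15, edgeR adjusted p = 0.00014), and GRR1 (0.96 ± 0.14, edgeR adjusted p = 0.00031) were higher too. BMH1 fell to 420 and 407 CPM in ceg1-AA rapamycin, against 1143 and 1139 CPM in ceg1-AA DMSO (-1.46 ± 0.15, edgeR adjusted p = 5.8e-05), and BMH2 also fell (-0.86 ± 0.20, edgeR adjusted p = 0.0053), though with total counts alone it did not pass (-0.34, edgeR adjusted p = 0.162). The sensor RTG2 (-0.07 ± 0.14), LST8 (-0.16 ± 0.15) and RTG1 (0.26 ± 0.35) did not pass, and with total counts alone RTG2 was 0.45 and passed (edgeR adjusted p = 0.0185). Between strains under rapamycin, 4 of 8 were higher in ceg1-AA/xrn1D and 1 lower, where 21.2% of all genes were higher and 22.5% lower. RTG1 (1.02 ± 0.27), BMH2 (0.85 ± 0.19), BMH1 (0.83 ± 0.15) and LST8 (0.80 ± 0.14) were higher and GRR1 (-0.70 ± 0.13) lower, with edgeR adjusted p between 0.0011 and 0.012. Without ceg1-AA rapamycin replicate 2 that count is 2 higher and 1 lower. RTG3 did not pass in that comparison, at 115.8 and 107.0 CPM in ceg1-AA/xrn1D rapamycin, against 98.1 and 114.3 CPM in ceg1-AA rapamycin (0.07 ± 0.16). Under DMSO RTG3 was higher in ceg1-AA/xrn1D (82.1 CPM in 1 library, against 41.8 and 52.7 CPM in ceg1-AA, log2 0.81 ± 0.20, edgeR adjusted p = 0.01). RTG1, MKS1 and LST8 were higher there too, while BMH1 was lower (-0.73 ± 0.18). Under DMSO that makes 4 of 8 higher and 1 lower, where 19.2% of all genes were higher and 20.0% lower. With DESeq2 the count is 0 higher and 1 lower, without ceg1-AA DMSO replicate 1 it is 1 and 1, and with total counts alone it is 5 and 0, BMH1 no longer passing (-0.19, edgeR adjusted p = 0.349).

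Of 4 Hap genes, 1 passed for rapamycin in ceg1-AA with TMM scaling, near the 24.3% of all genes that were higher. This was HAP4, the activating and regulated subunit of the Hap complex. It had 120.0 and 93.4 CPM in rapamycin, against 41.8 and 51.7 CPM in DMSO (1.20 ± 0.20, edgeR adjusted p = 0.00069). With total counts alone HAP3 passed as well (1.23, edgeR adjusted p = 0.00849). Under DMSO HAP4 was at 101.9 CPM in ceg1-AA/xrn1D (1 library), against 41.8 and 51.7 CPM in ceg1-AA (1.13 ± 0.21). Between strains under rapamycin HAP3, a DNA-binding subunit, was lower in ceg1-AA/xrn1D (-0.77 ± 0.27, edgeR adjusted p = 0.041), but did not pass with total counts alone (-0.68, edgeR adjusted p = 0.0777), and HAP4 did not pass (-0.41 ± 0.17, edgeR adjusted p = 0.067). For rapamycin over DMSO in ceg1-AA with TMM scaling, HAP4 RNA was higher and RNAs of the TCA genes ACO1, IDH1 and IDH2 were lower. With total counts alone HAP4 (1.715) and IDH2 (-0.49) still passed, and ACO1 and IDH1 did not. Whether the Hap complex bears on these genes here was not tested.

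The genes around the 9 are counted by list. For rapamycin over DMSO in ceg1-AA, 24.3% of all genes were higher and 22.8% lower. Of 13 other TCA cycle genes, none was higher and 8 were lower in ceg1-AA rapamycin than in DMSO (median -0.80). With total counts alone 2 of the 13 were higher and 5 lower. The largest falls were of LSC2 (-1.56 ± 0.18) and SDH4 (-1.54 ± 0.33), subunits of succinyl-CoA ligase and succinate dehydrogenase. SDH4 had only 13 and 8 counts in ceg1-AA rapamycin, against 39 and 27 in ceg1-AA DMSO. All 5 genes of pyruvate entry were lower (median -1.90), or 4 with total counts alone. PDA1, a subunit of pyruvate dehydrogenase, fell most, with 97.1 and 106.3 CPM in ceg1-AA rapamycin, against 505 and 517 CPM in ceg1-AA DMSO (-2.33 ± 0.15, edgeR adjusted p = 9.4e-06), and LAT1, of the same complex, fell by 2.04 ± 0.16. Of 6 glyoxylate and peroxisome genes 5 were higher and 1 lower (median 1.11). These included MLS1 (1.29 ± 0.37), the malate synthase, and FOX2 (1.28 ± 0.20), of fatty acid oxidation, with MDH3, the peroxisomal malate dehydrogenase, lower (-1.52 ± 0.17). MLS1 had low counts, at 11.5 to 14.2 CPM in ceg1-AA DMSO. With DESeq2, and without ceg1-AA DMSO replicate 1, 2 of these 6 were higher and 1 lower, and without ceg1-AA rapamycin replicate 2 the count was 3 and 1. Of 7 glutamate and glutamine genes 3 were higher, led by the NADP-dependent isocitrate dehydrogenases IDP2 (1.32 ± 0.26) and IDP3 (1.09 ± 0.38). IDP3 had low counts, at 8.2 to 12.2 CPM in ceg1-AA DMSO. The glutamate synthesis genes GDH1 (-0.99 ± 0.19) and GLT1 (-0.51 ± 0.16) were lower. With total counts alone GLT1 was at 0.0050 and did not pass, and 4 genes of this list were higher and 1 lower. Of 6 carriers, ODC2, the oxodicarboxylate carrier, alone passed (1.21 ± 0.16), near the share of all genes, or 3 with total counts alone. None of the 3 relatives of DLD3 and PDH1 passed, or 1, DLD1, with total counts alone (0.50, edgeR adjusted p = 0.0364).

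Between strains under rapamycin, 21.2% of all genes were higher in ceg1-AA/xrn1D and 22.5% lower. Of the 13 other TCA genes, 6 were higher and 1 lower (median 0.39), led by LSC2 (1.66 ± 0.17) and SDH4 (1.65 ± 0.29). The SDH4 value rests on 13 and 8 counts in ceg1-AA rapamycin. With DESeq2, and without any of 3 single rapamycin libraries (both of ceg1-AA and replicate 1 of ceg1-AA/xrn1D), the count is 4 higher and 1 lower. Of the 5 pyruvate entry genes 3 were higher, among them LAT1 (1.42 ± 0.16) and PDA1 (1.18 ± 0.14), or 2 without ceg1-AA rapamycin replicate 1. Of the 6 glyoxylate and peroxisome genes 2 were higher and 1, MLS1 (-1.37 ± 0.31, edgeR adjusted p = 0.0047), was lower. MDH2, the cytosolic malate dehydrogenase, differed about as much as IDH1 and IDH2, with 183 and 194 CPM in ceg1-AA/xrn1D rapamycin, against 40.9 and 44.7 CPM in ceg1-AA rapamycin (2.14 ± 0.16, edgeR adjusted p = 7.3e-06). IDP2 had 138.0 and 104.1 CPM in ceg1-AA/xrn1D rapamycin, against 50.5 and 60.6 CPM in ceg1-AA rapamycin (1.12 ± 0.19). Of the 7 glutamate and glutamine genes 2 were higher, IDP2 and GDH2 (0.70 ± 0.14), and 1, GLT1, was lower (-0.87 ± 0.16, edgeR adjusted p = 0.0018). The counts of this list and of the glyoxylate and peroxisome list are near the shares of all genes. Of 6 carriers 3 were higher and none lower, led by AGC1 (0.99 ± 0.17), the aspartate-glutamate carrier, and DIC1 (0.95 ± 0.14), the dicarboxylate carrier.

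Under DMSO none of the 13 other TCA genes was higher in ceg1-AA/xrn1D and 4 were lower (median -0.37), and 4 of 5 pyruvate entry genes were lower (median -0.63), where 19.2% of all genes were higher and 20.0% lower. With total counts alone 1 of the TCA genes was higher and 1 lower, and 1 pyruvate entry gene was lower. Of the 6 glyoxylate and peroxisome genes 3 were higher and 1 lower, or 4 and 0 with total counts alone. MDH2 (182 CPM in ceg1-AA/xrn1D DMSO, against 22.9 and 25.3 CPM in ceg1-AA DMSO; 2.92 ± 0.19, edgeR adjusted p = 6.4e-06) was higher beside IDP2 (1.85 ± 0.25) and ODC2 (1.70 ± 0.18). GLT1 (-1.33 ± 0.21) and GDH1 (-1.23 ± 0.24), which encode glutamate synthase and a glutamate dehydrogenase, were lower. The median log2 change was -0.43 for the 7 glutamate and glutamine genes and 0.43 for the 6 carriers. Every value in this comparison rests on the lone ceg1-AA/xrn1D DMSO library, which is assumed to vary like the other groups. For these lists, alternatives other than total counts are not given here.

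**Figure D4:**
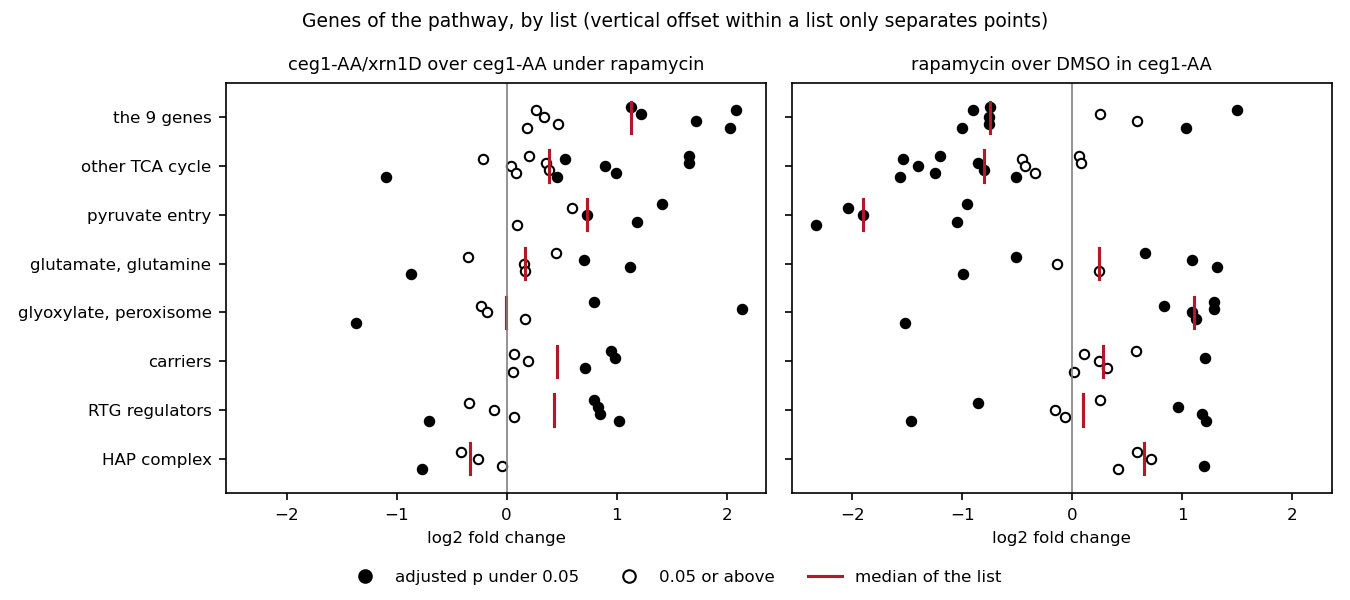
Log2 fold changes (edgeR) of every gene tested in each list, for ceg1-AA/xrn1D over ceg1-AA under rapamycin and for rapamycin over DMSO in ceg1-AA; filled points have an adjusted p under 0.05, open points do not, and a red line marks the list's median. For rapamycin in ceg1-AA the 5 pyruvate entry genes all lie below 0 (median -1.90), while 5 of the 6 glyoxylate and peroxisome genes lie above 0 (median 1.11).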

How the data were processed

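The deposited tables give a whole-number count, a TPM value, a coding length and a bias factor for each of 6600 open reading frames. The authors left the counts unnormalized, and their deposited TPM corrects for length and bias. FastQC 0.11.5, HISAT2 2.1.1, SAMtools 1.15.1 and DESeq2 and the build R64 are named in the submitters' processing notes. The counting program and its use of strand are not given in the sources used here.

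Counts of 7 libraries (935651 to 3385761 each) were fitted in edgeR 4.0.16 (R 4.3.3), with filterByExpr (5879 genes), TMM, 1 coefficient per group, a quasi-likelihood test on 3 residual degrees of freedom and Benjamini-Hochberg adjustment over all genes at 0.05. CPM values are TMM-scaled. The SE of an edgeR log2 fold change was derived as its absolute value divided by the square root of the quasi-likelihood F statistic. Alternatives were total counts, RLE scaling, no filter, DESeq2 1.42.0, a replicate block, and each library left out. Replicates differed by more than counting error (chi-square per degree of freedom 2.39 to 8.51). The fit was tested on simulated data. Named genes are the 9 genes, XRN1, every RTG, Hap and mitochondrial list gene, the up to 2 largest changes per direction in each other list, and the 5 genes nearest CIT2; 1 gene that this rule names is not reported here. Genes and lists were chosen with earlier results of these data known. Positions and promoter windows were read from R64, which names 5917 of these reading frames.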

Additional observations from a re-analysis of the deposited data

Results flagged for a closer look

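Genes of the 9, of the RTG regulators and of the Hap complex were set aside where their rapamycin response differed between strains by the interaction test (ceg1-AA/xrn1D minus ceg1-AA, log2, edgeR, the lone ceg1-AA/xrn1D DMSO library being assumed to vary like the other groups). Of all genes, 21.5% passed this test. BMH1 (1.56 ± 0.24, edgeR adjusted p = 0.0033) and BMH2 (1.04 ± 0.29, edgeR adjusted p = 0.029) had differences above 0, though with total counts alone BMH2 did not pass (0.59, edgeR adjusted p = 0.134). BMH1 responded by 0.10 in ceg1-AA/xrn1D and by -1.46 in ceg1-AA. HAP4 (-1.54 ± 0.27, edgeR adjusted p = 0.0055), MKS1 (-0.88 ± 0.22, edgeR adjusted p = 0.018) and GRR1 (-0.85 ± 0.20, edgeR adjusted p = 0.016) had differences below 0. HAP4 responded by -0.34 in ceg1-AA/xrn1D and by 1.20 in ceg1-AA. Of the 9 genes, IDH2 (0.79) and CIT3 (-1.01) passed, with the limits given above.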

How the results depend on the processing

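Of the values for single genes, 454 kept their direction and side of the threshold, 24 no longer passed, 22 newly passed and 13 changed sign, none of them past the threshold in the reported fit. Of the counts, 90 stayed within 1.5 times the reported one and 24 did not. The causes were not tested. For rapamycin in ceg1-AA/xrn1D, the 4 genes called became 12 without a filter, 35 with DESeq2, 0 with the replicate block and 0 to 368 when a library was left out, and the 9 genes gave 0 to 1 calls (1, PDH1, without either ceg1-AA DMSO library). Leaving out a library gave 1597 to 2974 calls (2567 reported) between strains under rapamycin, and 549 to 1576 calls (1265 reported) with 0 to 4 of the 9 genes for the difference of responses, where total counts alone gave 2092. Without the ceg1-AA/xrn1D DMSO library, 3 of the 5 comparisons have no value.

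Same-numbered replicates deviated together at correlations of 0.131, -0.149 and -0.027 between groups, so the numbers do not pair the libraries. With the replicate block, 2631 genes and 6 of the 9 were called for rapamycin in ceg1-AA, 2433 and 5 between strains under rapamycin, 1964 and 6 between strains under DMSO, and 925 and 0 for the difference of responses.

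Signs changed for CIT1 with rapamycin in ceg1-AA (-0.0087 to 0.57 with a library left out), ACO1 with rapamycin in ceg1-AA/xrn1D (0.056 with total counts alone, -0.13 to 0.12 with a library left out) and DLD3 between strains under DMSO (0.0052 with total counts alone). For the difference of responses they changed for CIT1 (-0.38 with total counts alone, -0.24 to 0.33 with a library left out), PDH1 (-0.39 and -0.23 to 0.28) and PYC1 (-0.034 and -0.054 to 0.79). Depth limits CIT3 and PDH1 most, with 21 to 77 counts per ceg1-AA library.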
